A study of Rattus norvegicus with 8 samples.

Results

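The 10 genes described here, *Nqo1*, *Gclc*, *Gclm*, *Gpx1*, *Txnrd1*, *Srxn1*, *Sod1*, *Sod2*, *Nfe2l2* and *Mt3*, make up a fixed list of antioxidant and glutathione genes, each measured by its brightest probe among 15159 named genes on the arrays. Male rats of the strain F344 (F344N in the labels), kept in short photoperiod (SD), received all-trans retinoic acid (RA) or vehicle into the third ventricle in a volume of 5 μl. Hypothalamic blocks were taken 24 hrs later. The labels give the RA concentration as 1e-05 M and name saline as the vehicle, whereas the methods give 1e-04 M and a vehicle of DMSO in saline. RNA of 4 RA-injected and 4 vehicle-injected rats was compared with dye-swap on 8 two-colour Agilent arrays, so every array carried RA RNA in one dye and vehicle RNA in the other. RA was labelled with Cy5 on arrays 1, 3, 6 and 8 and with Cy3 on arrays 2, 4, 5 and 7. On the slide, arrays 1 to 4 formed a first row and arrays 5 to 8 a second. Labels and methods do not say which rats were on which row, so row and rat cannot be told apart. A bolus into the ventricle reaches the brain through the cerebrospinal fluid, and no uninjected rats were analysed here, so injection itself is shared by both groups.

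Cells keep superoxide and peroxides low with enzymes that act in series. Superoxide dismutases turn superoxide into hydrogen peroxide. Glutathione peroxidases and peroxiredoxins remove the peroxide at the expense of glutathione or thioredoxin, and catalase removes it without them. NRF2, the transcription factor encoded by *Nfe2l2*, is held in the cytoplasm by KEAP1 and, once released, binds antioxidant response elements at genes for glutathione synthesis, thioredoxin reductase, sulfiredoxin and quinone reductase. In the brain much of this defence is ascribed to astrocytes, which supply neurons with precursors of glutathione.

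Of the 10 genes, *Gpx1* and *Nfe2l2* were higher after RA, by 1.27-fold and 1.15-fold, and both were higher on all 8 arrays, as 4.07% of named genes were. The other 8 genes, among them the known NRF2 targets *Nqo1*, *Gclc*, *Txnrd1* and *Srxn1*, had log2 fold changes between -0.05 and 0.12 and did not pass the test. A call meant an unadjusted p under 0.01 in limma, the threshold of the methods, taken as the largest p over the 24 ways of pairing arrays of opposite dye order. At that threshold 3.52% of all named genes were higher after RA and 0.792% lower, which makes 2 of 10 a count to be read against a background of 4.31% in either direction. After Benjamini-Hochberg adjustment over 30367 probes limma left 0 of the 10, and 0 of all named genes, under 0.05, although 2 of the 10 and 13.1% of all named genes had p under 0.05 before adjustment. Other models of the same arrays moved this count to 1 or 2 of the 10. In limma the adjusted p of *Gpx1* was 0.0166 with slide row as a fixed block and 0.0341 with the pair as a random block. It was 0.0426 in the second slide row alone. Both *Gpx1* and *Nfe2l2* were under 0.05 with arrays taken as independent and under the pairing that gave most calls. Independent arrays ignore that RNA was used again with the dyes swapped, and that pairing was picked by its outcome. The median log2 fold change of the 10 was 0.02, against -0.0047 over all named genes, and 5 of the 10 were above 0, against 47.6% of all named genes.

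**Figure D1:**
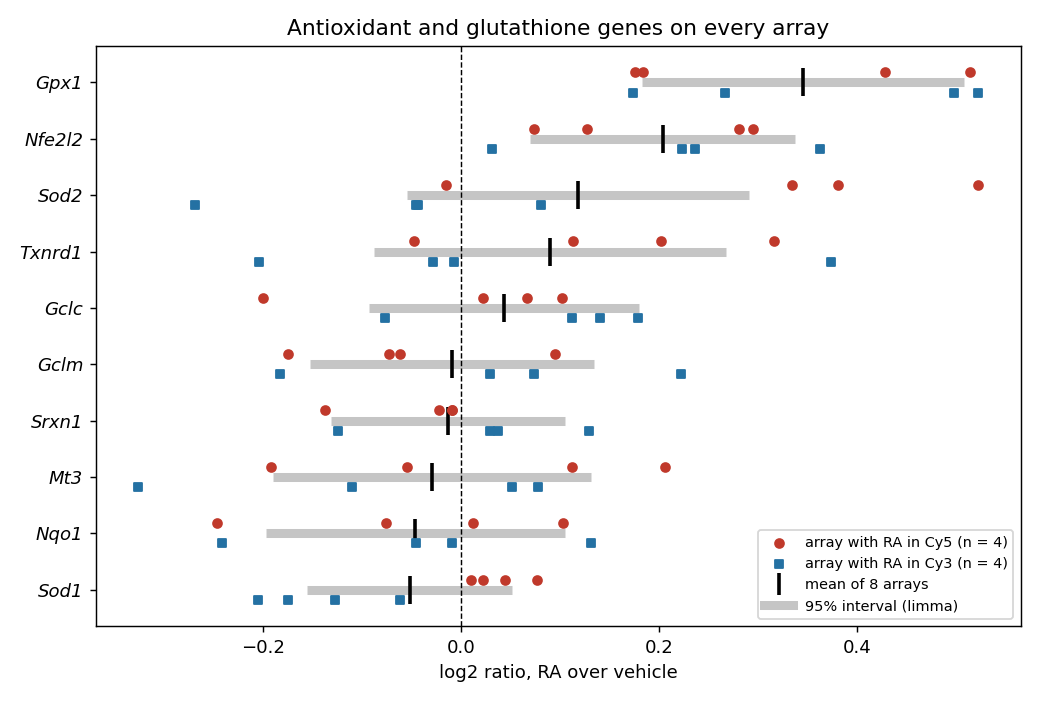
Log2 ratio of RA over vehicle for each of the 10 genes (horizontal axis), with 1 point per array, circles for the 4 arrays with RA in Cy5 and squares for the 4 with RA in Cy3. The black bar is the mean of 8 arrays and the grey bar its 95% interval from limma, which lies above 0 for *Gpx1* (0.18 to 0.51) and *Nfe2l2* (0.07 to 0.34) and spans 0 for the other 8 genes.

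The regions just upstream of these genes are shown because NRF2 and the retinoic acid receptors act at short DNA motifs. RefSeq promoters of the rat assembly GRCr8, running from 250 bases before to 50 bases after the annotated start, were found for all 10 genes. Each motif was searched on both strands, and a match is a description of letters, not of a site in use. Elements outside this window, or with other letters, were not searched. A gene without a match may therefore still have the element. The core of the antioxidant response element, TGACNNNGC, occurred in 12.1% of all 33469 promoters and in those of 4 of the 10 genes, namely *Gclm*, *Txnrd1*, *Sod2* and *Nfe2l2*. The promoters of *Gpx1* and *Nfe2l2*, the genes that rose, are given in full from 5′ to 3′ on the strand of the gene, with matches to the GC box GGGCGG and to the antioxidant response element core in capitals. They lie at chr8:117905212-117905511 on the plus strand and chr3:81028950-81029249 on the minus strand.

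*Gpx1* promoter: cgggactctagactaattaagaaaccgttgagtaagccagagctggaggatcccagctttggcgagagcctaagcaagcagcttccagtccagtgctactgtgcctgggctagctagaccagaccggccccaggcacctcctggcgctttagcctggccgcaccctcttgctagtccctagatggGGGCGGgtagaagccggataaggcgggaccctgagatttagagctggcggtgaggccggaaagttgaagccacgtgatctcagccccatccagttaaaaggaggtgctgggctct
*Nfe2l2* promoter: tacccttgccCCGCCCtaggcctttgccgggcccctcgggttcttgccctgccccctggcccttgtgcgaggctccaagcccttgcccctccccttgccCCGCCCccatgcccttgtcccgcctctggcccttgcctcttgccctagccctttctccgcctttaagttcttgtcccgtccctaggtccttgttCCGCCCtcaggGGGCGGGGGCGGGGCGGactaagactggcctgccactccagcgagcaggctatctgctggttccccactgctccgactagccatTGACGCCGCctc

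The *Gpx1* promoter held 1 GC box, starting at position -65 from the annotated start, and no match to the antioxidant response element core. The *Nfe2l2* promoter held 6 GC boxes, the last 3 of them adjoining or overlapping, and a match to the element core at position 39. At least 1 promoter of each of the 10 genes held a GC box, which occurred in 33.1% of all promoters. The remaining matches to the element core are shown in capitals within 29 bases each, for genes that did not pass the test. They lie at chr2:213031953-213031981 on the plus strand (*Gclm*), chr7:22755964-22755992 on the minus strand (*Txnrd1*, the second of its promoters) and chr1:50050185-50050213 on the minus strand (*Sod2*).

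*Gclm* element: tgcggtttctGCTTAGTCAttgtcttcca
*Txnrd1* element: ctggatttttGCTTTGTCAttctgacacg
*Sod2* element: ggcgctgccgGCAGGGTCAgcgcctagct

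All of these 3 matches were on the opposite strand, starting at positions -172, -78 and -35. The half-site of retinoic acid receptors, AGGTCA, was present in 16.2% of all promoters and in 1 of the 10, that of *Srxn1*, at position -174. A direct repeat of this half-site with 5 bases between its copies was found in none of the 10 and in 0.00896% of all promoters. Of the motifs searched, the GC box alone was in the promoters of both genes that rose. It does not set them apart, since all 10 genes had it in at least 1 promoter.

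*Nfe2l2* encodes NRF2, the regulator of the pathway. Its log2 ratio of RA over vehicle was 0.07, 0.03, 0.13 and 0.24 on arrays 1 to 4 and 0.36, 0.28, 0.22 and 0.29 on arrays 5 to 8. No array was below 0, and the lowest values came from arrays 1 and 2, one of each dye order. The log2 fold change was 0.20 (standard error 0.06, 95% interval 0.07 to 0.34), which is a 1.15-fold increase (1.05 to 1.26). In limma its unadjusted p was 0.00851 and its adjusted p 0.300. The p ran from 6.68e-04 to 0.00851 over the 24 pairings. Mean ratios were 0.19 ± 0.11 (SD, n = 4 arrays) with RA in Cy5 and 0.21 ± 0.14 (SD, n = 4 arrays) with RA in Cy3, a difference smaller than the spread within either dye order. Normalised log2 levels, taken per channel after scaling between arrays, ran from 9.89 to 10.56 in the RA channels (median 10.25) and from 9.82 to 10.28 in the vehicle channels (median 10.00). The levels of the groups therefore overlapped, although within each array RA was the higher channel. When 1 array of each dye order was left out, the p of *Nfe2l2* rose to as much as 0.0412 and stayed under 0.01 in 4 of 16 cases, namely those without array 2.

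Around NRF2, none of 13 partners and regulators with a probe passed the test (0 by limma, and 1 with p under 0.05 before adjustment). Only 9 of the 13 were above background in RA or vehicle on every array. *Nfe2* and the repressor gene *Bach1* were above background on no array in either channel, so nothing is drawn from them. *Keap1*, the inhibitor of NRF2, had a log2 fold change of -0.01 (standard error 0.06). *Bach2*, a repressor that competes for the same elements, had -0.14 (standard error 0.05, unadjusted p 0.0342 in limma) and the related factor *Nfe2l1* had -0.10 (standard error 0.06).

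*Gclc* and *Gclm* encode the catalytic and the modifier subunit of glutamate-cysteine ligase, which carries out the rate-limiting step of glutathione synthesis. The log2 ratio of *Gclc* was 0.10, 0.11, 0.02 and 0.18 on arrays 1 to 4 and 0.14, -0.20, -0.08 and 0.07 on arrays 5 to 8. It was above 0 on every array of the first slide row and on both sides of 0 in the second, and the log2 fold change of 0.04 (standard error 0.06, 95% interval -0.09 to 0.18) did not pass the test. The probe of *Gclm* was not well above background on any array in either channel. Its log2 ratios lay between -0.18 and 0.22, on either side of 0 in equal number, and no fold change is drawn from them. Among 15 further genes of glutathione synthesis and recycling none passed (0 by limma, and 1 with p under 0.05 before adjustment), and their median log2 fold change was -0.01. *Oplah*, which returns oxoproline to glutamate, had 0.30 (standard error 0.12, unadjusted p 0.0352 in limma) and was above 0 on all 8 arrays, up to 0.83 on array 6. *Slc3a2*, the heavy chain of the cystine transporter, had 0.12 (standard error 0.07).

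*Gpx1* encodes the cytosolic glutathione peroxidase, which reduces hydrogen peroxide with glutathione. Its log2 ratio was 0.18, 0.17, 0.18 and 0.27 on arrays 1 to 4 and 0.50, 0.52, 0.52 and 0.43 on arrays 5 to 8. Every array was above 0, and the arrays of the second slide row were all higher than those of the first. The log2 fold change was 0.35 (standard error 0.07, 95% interval 0.18 to 0.51), a 1.27-fold increase (1.13 to 1.42), and limma gave p values of 0.00149 before and 0.242 after adjustment. The p ran from 9.35e-06 to 0.00149 over the pairings. When the signs of the 4 pair means were permuted, the exact two-sided p was 0.125 for *Gpx1* and for *Nfe2l2* in every pairing, the smallest p that 4 pairs allow. The dye orders differed by less than the spread within each, with means of 0.33 ± 0.17 (SD, n = 4 arrays) for RA in Cy5 and 0.37 ± 0.17 (SD, n = 4 arrays) for RA in Cy3.

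The *Gpx1* probe stood on each array in 10 spots, and none of them lay in the dim area of array 5 described with *Srxn1*. Log2 levels ran from 12.70 to 13.37 in the RA channels (median 12.96) and from 12.51 to 12.85 in the vehicle channels (median 12.60), and the groups overlapped. The highest RA levels, on arrays 7 and 6, stood beside the highest vehicle levels, so the channels of these arrays were high together. Between slide rows the log2 ratio of *Gpx1* was 0.20 in the first and 0.49 in the second, a difference of 0.29 (standard error 0.09). For that difference limma gave p values of 0.0166 before and 0.539 after adjustment. The rows may hold different rats, so the row difference cannot be told apart from a difference between rats. No other gene of the 10 differed between rows with p under 0.05, which 7.96% of named genes did, and 3.01% had p under 0.01. For *Nfe2l2* the row means were 0.12 and 0.29 (unadjusted p 0.124 in limma). The first row alone gave no call for either gene (*Gpx1* 0.20, unadjusted p 0.0141, and *Nfe2l2* 0.12, unadjusted p 0.125, both by limma), and in the second row alone *Gpx1* was called.

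**Figure D2:**
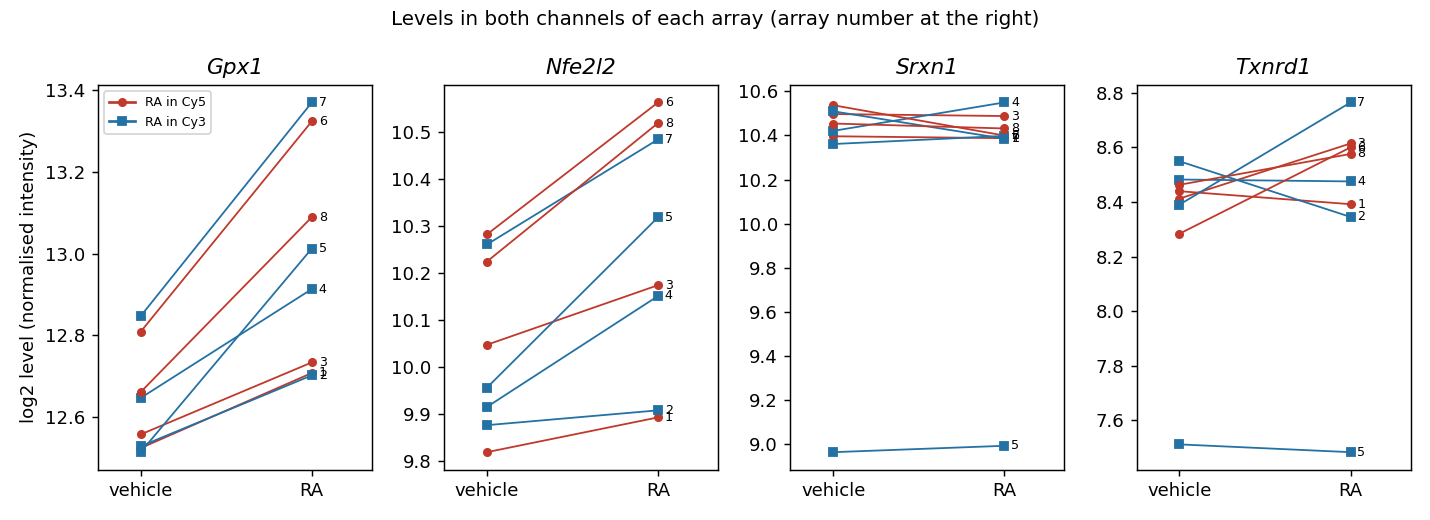
Normalised log2 intensity of *Gpx1*, *Nfe2l2*, *Srxn1* and *Txnrd1* in the vehicle and RA channel of each array, joined by a line per array and numbered by array at the right. The vertical axes differ between genes and do not start at 0. All 8 lines rise for *Gpx1* and *Nfe2l2*, whereas array 5 lies far below the other 7 in both channels for *Srxn1* (8.99 and 8.96) and *Txnrd1* (7.48 and 7.51).

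Among the other glutathione peroxidases none of 7 passed the test (0 by limma, and 0 with p under 0.05 before adjustment). *Gpx2*, known from epithelia, had a log2 fold change of 0.16 (standard error 0.13), and *Gpx4*, which reduces lipid peroxides, had -0.05 (standard error 0.05). Glutathione transferases, which couple glutathione to electrophiles, held 2 calls among 22 genes, both lower after RA, where the background for lower calls was 0.792%. The theta-class *Gstt2* had a log2 ratio below 0 on every array (-0.48 to -0.07), as 1.8% of named genes had, and a log2 fold change of -0.22 (standard error 0.06, unadjusted p 0.00517, adjusted p 0.279 in limma). The mu-class *Gstm5* had -0.20 (standard error 0.05, unadjusted p 0.00673, adjusted p 0.288 in limma) and was above 0 on array 3 alone, at 0.03. Mu-class genes are close in sequence, and what the probe binds beyond its own transcript was not tested. The median of the 22 genes was -0.04. *Gstt2* and *Gstm5* were the only lower calls of all related lists. Lower calls over these lists numbered 0 with plain background subtraction and with the scanner's log ratio. They numbered 1 with dim spots left out and 6 with RA in Cy3 only.

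*Txnrd1* encodes the cytosolic thioredoxin reductase, which keeps thioredoxin reduced with NADPH. Its log2 ratio was -0.05, -0.20, 0.20 and -0.01 on arrays 1 to 4 and -0.03, 0.32, 0.37 and 0.11 on arrays 5 to 8. Arrays of both rows stood on either side of 0, and the log2 fold change was 0.09 (standard error 0.08, 95% interval -0.09 to 0.27). A second probe of the gene gave 0.03 (standard error 0.06, unadjusted p 0.597 in limma). *Srxn1* encodes sulfiredoxin, which repairs over-oxidised peroxiredoxins. Its log2 ratios were within 0.14 of 0 on every array, from -0.14 on array 6 to 0.13 on array 4, and the log2 fold change was -0.01 (standard error 0.05, 95% interval -0.13 to 0.10).

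Both genes had an unusual level on array 5. On that array 3036 of 58717 spots (5.17%) were more than 1 log2 unit below their own median over the arrays, against 0.00852% to 0.361% on the other 7 arrays. All dim spots of array 5 lay in a central patch of the array. Of the 2 spots of *Txnrd1* and the 2 of *Srxn1*, 1 each lay in it, at -1.73 and -2.28 log2 units from their medians. Both channels were low on array 5, at 8.99 (RA) and 8.96 (vehicle) for *Srxn1* and 7.48 and 7.51 for *Txnrd1*. With such spots left out, the ratio on array 5 became 0.23 for *Srxn1* and -0.10 for *Txnrd1*, and the log2 fold changes 0.01 and 0.08. The *Srxn1* spot that was kept on array 5 was itself at -0.69 log2 units from its median. The other 8 genes had no dim spot on array 5.

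Among 19 genes of the thioredoxin and peroxiredoxin system none passed the test (0 by limma, and 3 with p under 0.05 before adjustment), and the median was 0.01. *Txn1*, thioredoxin itself, had a log2 fold change of 0.18 (standard error 0.06, unadjusted p 0.0153 in limma). *Prdx1*, a peroxiredoxin, had 0.18 (standard error 0.07, unadjusted p 0.0445 in limma).

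*Nqo1* encodes NAD(P)H quinone oxidoreductase, a widely used readout of NRF2. Its log2 ratio was 0.10, -0.05, -0.08 and 0.13 on arrays 1 to 4 and -0.24, 0.01, -0.01 and -0.25 on arrays 5 to 8. The lowest values were those of arrays 5 and 8, which carried RA in different dyes. The log2 fold change was -0.05 (standard error 0.06) and its 95% interval of -0.20 to 0.10 leaves room for an increase of up to 1.08-fold. Of 19 other known NRF2 target genes, only *Hmox1* passed the test. *Hmox1* encodes heme oxygenase 1, which breaks down heme and is also controlled by other factors than NRF2. Its log2 ratio was 0.58, 0.46, 0.28 and 0.0025 on arrays 1 to 4 and 0.77, 1.65, 1.50 and 1.12 on arrays 5 to 8, so that it was lowest on array 4 and highest on array 6. The log2 fold change of 0.80 (standard error 0.20) amounts to a 1.74-fold increase, and limma gave p values of 0.00519 before and 0.279 after adjustment. *Ugt1a6*, a glucuronosyltransferase, had 0.44 (standard error 0.15, unadjusted p 0.0202 in limma). The median of the 19 genes was 0.03.

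*Sod1* and *Sod2* encode the cytosolic copper-zinc and the mitochondrial manganese superoxide dismutase. The log2 ratio of *Sod1* was 0.01, -0.06, 0.04 and -0.18 on arrays 1 to 4 and -0.21, 0.08, -0.13 and 0.02 on arrays 5 to 8. It was above 0 on all 4 arrays with RA in Cy5 (mean 0.04) and below 0 on all 4 with RA in Cy3 (mean -0.14), a pattern of opposite signs that 6.72% of named genes had. The mean of both dye orders, in which a dye effect cancels, was -0.05 (standard error 0.04, 95% interval -0.16 to 0.05). The log2 ratio of *Sod2* was -0.02, -0.27, 0.34 and -0.04 on arrays 1 to 4 and -0.05, 0.52, 0.08 and 0.38 on arrays 5 to 8. Its mean was 0.31 ± 0.23 (SD, n = 4 arrays) with RA in Cy5 and -0.07 ± 0.15 (SD, n = 4 arrays) with RA in Cy3, and 4.63% of named genes differed between dye orders by at least as much. Over both dye orders *Sod2* had a log2 fold change of 0.12 (standard error 0.07, 95% interval -0.05 to 0.29, unadjusted p 0.151 in limma). *Sod3*, the extracellular form, had -0.11 (standard error 0.10), and *Ccs*, the copper chaperone of *Sod1*, had -0.03 (standard error 0.05). Together with catalase, none of these 3 genes passed (0 by limma, and 0 with p under 0.05 before adjustment).

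*Mt3* encodes metallothionein 3, a zinc- and copper-binding protein of neurons and astrocytes. Its log2 ratio was 0.21, 0.08, -0.05 and -0.33 on arrays 1 to 4 and 0.05, -0.19, -0.11 and 0.11 on arrays 5 to 8. Values lay on either side of 0 in equal number, and the log2 fold change was -0.03 (standard error 0.07, 95% interval -0.19 to 0.13). The inducible metallothioneins *Mt1* and *Mt2A*, by contrast, were both called higher, 2 of 6 genes in the list of metallothioneins and zinc handling. Of all named genes 3.52% were called higher. *Mt2A* had a log2 ratio of 0.72, 0.62, 0.87 and 0.63 on arrays 1 to 4 and 2.37, 1.66, 1.58 and 2.70 on arrays 5 to 8, a 2.63-fold increase (log2 fold change 1.39, standard error 0.29, unadjusted p 0.00174, adjusted p 0.250 in limma). *Mt1* had a log2 fold change of 0.60 (standard error 0.12, unadjusted p 0.00151, adjusted p 0.242 in limma) and was below 0 on array 4 alone, at -0.06. Compared within each array, *Mt1* exceeded *Mt3* by 0.63 ± 0.35 (SD, n = 8 arrays) in log2 ratio and *Mt2A* exceeded *Mt3* by 1.42 ± 0.80 (SD, n = 8 arrays). Both differences were above 0 on all 8 arrays, with an exact permutation p of 0.125 each, again the smallest possible.

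The sources of superoxide were looked at beside the genes that remove it. Of 11 subunits of NADPH oxidases, which make superoxide on purpose, 3 rose after RA, beside 3.52% of all named genes. Only 5 of the 11 were above background in RA or vehicle on every array, and *Nox3* and *Nox4* were so on no array. *Cyba*, the membrane subunit p22phox, had a log2 fold change of 1.06 (standard error 0.19, unadjusted p 8.05e-04 in limma), *Ncf4*, the cytosolic p40phox, had 1.17 (standard error 0.20, unadjusted p 4.43e-04 in limma) and *Rac2*, the small GTPase of the complex, had 1.09 (standard error 0.19, unadjusted p 6.08e-04 in limma). These 3 were higher on all 8 arrays, with adjusted p values of 0.222 to 0.227. Across all 9 related lists, 115 of 122 genes had a named probe, of which 6 were called higher and 2 lower (6.96% in all, against 4.31% of named genes), and the median log2 fold change was -3.97e-04.

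**Figure D3:**
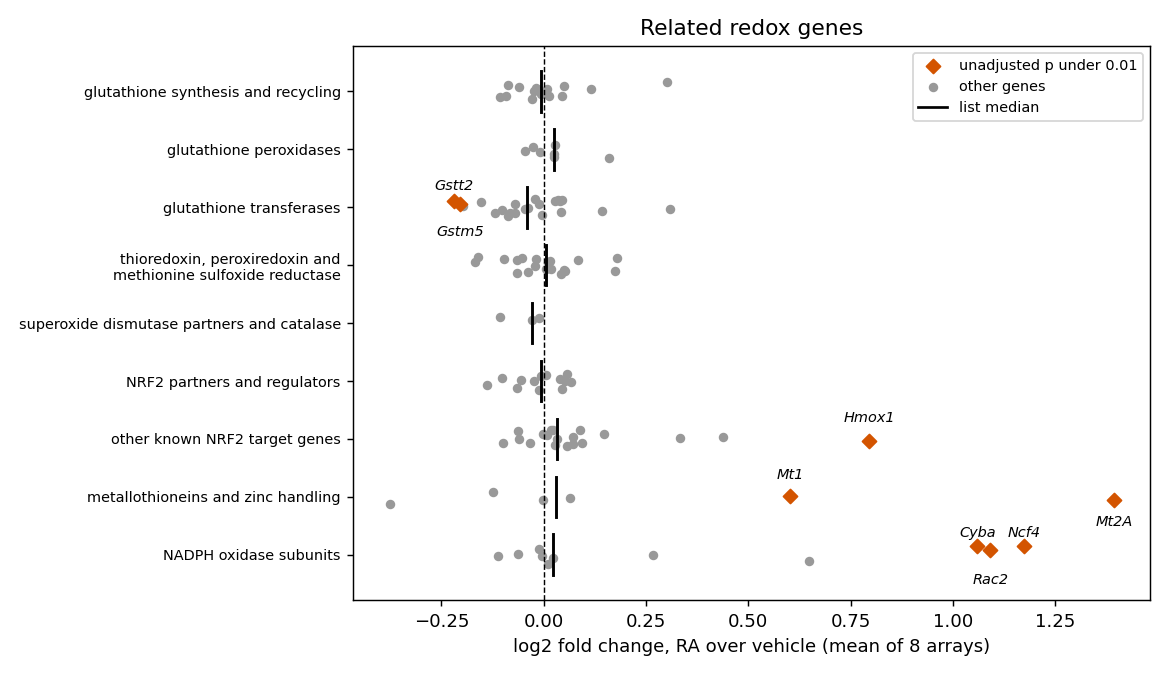
Log2 fold change of RA over vehicle (mean of 8 arrays, horizontal axis) of every gene in the 9 lists of related genes, with 1 point per gene, diamonds for genes with an unadjusted p under 0.01 and a bar at the median of each list. Medians of all lists lie between -0.04 and 0.03, and the called genes beyond 0.5 are *Hmox1*, *Mt1*, *Mt2A*, *Cyba*, *Rac2* and *Ncf4*.

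In tissue blocks, fewer cells of a type and less RNA per cell cannot be told apart, so marker genes were measured on the same arrays. The counts of calls below stand beside 3.52% of all named genes called higher and 0.792% called lower. For the tissue label the neuropeptide list was looked at. Of its 19 genes with a probe 18, *Pmch* and *Avp* among them, were above background in RA or vehicle on every array. So were 10043 of 15159 named genes, and the count alone does not mark the tissue. Of 12 microglia markers 5 were higher after RA and 1, *Tmem119*, was lower, all 12 were above background, and their summed intensity ran from 40055 to 90107 in the RA channels and from 29917 to 50839 in the vehicle channels. *C1qb* and *C1qa*, complement genes of microglia, had log2 fold changes of 1.03 (standard error 0.12) and 0.83 (standard error 0.13). Of 9 monocyte and macrophage markers 5 were higher, with sums of 10691 to 48633 in RA and 6296 to 12699 in vehicle, and their brightest genes *Lyz2* and *Plac8* had log2 fold changes of 1.30 (standard error 0.24) and 2.03 (standard error 0.33). Neutrophil markers, 8 with a probe, held 2 called higher, with sums of 819 to 2262 in RA and 726 to 901 in vehicle. Only 4 of these 8 were above background in RA or vehicle on every array. Of 11 reactive astrocyte markers 9 were higher, with sums of 9878 to 49079 in RA and 5184 to 8558 in vehicle, and among them *Hspb1* and *Vim* had 2.21 (standard error 0.27) and 0.62 (standard error 0.17). In turn 2 of 10 markers of resting astrocytes were lower, with sums of 171966 to 227194 in RA and 194073 to 228157 in vehicle, and 2 of 9 of neurons, with sums of 70328 to 91253 and 84706 to 98514. Of 9 oligodendrocyte markers 1 was called lower and 6 had p under 0.05 before adjustment in limma, 8 were below 0, and the median of -0.19 was the lowest of the marker lists, with sums of 100445 to 142689 in RA and 120484 to 188739 in vehicle. The median log2 ratio of the microglia list was 0.10 in the first slide row and 0.35 in the second. That of the reactive astrocyte list was 0.78 and 2.20. Both lists thus differed between rows in the same direction as *Gpx1* and *Nfe2l2*. The median of the monocyte and macrophage list was close in the rows, at 0.33 and 0.35. What part cell numbers had in the values of *Gpx1*, *Nfe2l2*, *Hmox1*, *Mt1*, *Mt2A* or the oxidase subunits was not tested. Choroid plexus markers had median log2 ratios of -1.35 and -1.27 on arrays 6 and 7 and of 0.07 to 0.49 on the other 6, and without array 6 or 7 *Gpx1* remained under an unadjusted p of 0.01 in limma, whichever array of the other dye order was left out with it. *Nfe2l2* lost its call in 6 of these 7 cases, with unadjusted p values of 0.0116 to 0.0306 in limma, and kept it without arrays 6 and 2 (0.00822). The loss was not particular to arrays 6 and 7. With both kept it occurred too, for example without arrays 3 and 4 (unadjusted p 0.0240 in limma). Over all 16 such cases *Nfe2l2* kept its call only in the 4 without array 2.

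**Figure D4:**
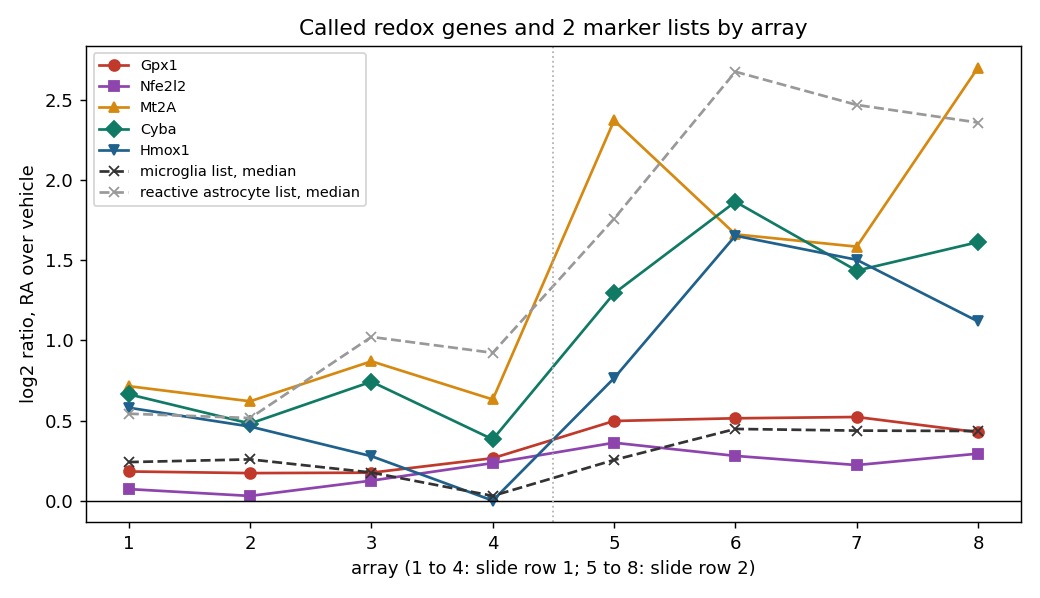
Log2 ratio of RA over vehicle (vertical axis) on each array (horizontal axis, slide rows separated by the dotted line) for *Gpx1*, *Nfe2l2*, *Mt2A*, *Cyba* and *Hmox1*, with dashed lines for the median of the microglia and of the reactive astrocyte markers. *Gpx1* lies between 0.17 and 0.52 and *Nfe2l2* between 0.03 and 0.36, below the other called genes in the second row, where *Mt2A* reaches 2.70.

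Genes whose ratios followed those of *Gpx1* and *Nfe2l2* most closely were picked by the smallest root mean square difference of the log2 ratios over the 8 arrays, among 9454 genes above background in both channels throughout. For *Gpx1* these were *Nup210* (0.0637), *Rps2* (0.0639) and *Slc31a2* (0.0644), which encode a nuclear pore protein, a ribosomal protein and a copper transporter. For *Nfe2l2* these were *Slc66a3* (0.0564), *Dbnl* (0.0578) and *Atp6v0e1* (0.0664). The order of the 10 genes by log2 fold change ran from *Gpx1* (0.35), *Nfe2l2* (0.20) and *Sod2* (0.12) through *Txnrd1* (0.09) and *Gclc* (0.04) to *Nqo1* and *Sod1* (both -0.05), and neighbours in this order had overlapping 95% intervals.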

How the data were processed

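All 8 arrays and both dyes were used. The authors deposited Cy3 and Cy5 intensity per spot on a linear scale (Feature Extraction 10.7.3.1), with the log10 ratio of that software, and a table of log2 ratios normalised by loess in limma. Each column of that table followed the loess ratio of its array without background correction (r at least 0.985), already as RA over vehicle, with medians from -0.003 to 0.013.

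The reanalysis ran in R 4.3.3 with limma 3.58.1. Median spot signals were corrected by normexp (offset 50), control and outlier spots were left out, loess was applied within arrays, spots of a probe were averaged and ratios were turned to RA over vehicle. The replicate numbers of the labels run from 1 to 8 without repeats and pair no arrays. Neither labels nor methods state which arrays share RNA, so limma was fitted on 4 pair means for all 24 pairings and the largest p was kept. Benjamini-Hochberg adjustment covered 30367 probes. The rows of the slide were compared in the same way with pairs made within rows. A probe counted as well above background where the scanner software marked at least 0.5 of its spots, as for 57.4% to 74.6% of probes per array in the RA channel. The number of arrays limits the precision. Whether the p values cover spread between rats depends on that unstated sharing. Median log2 ratios of the neuropeptide list were 0.29 and 0.24 on arrays 1 and 2 and -0.01 and -0.07 on arrays 3 and 4. They were -0.34 and -0.29 on arrays 5 and 8 and 0.02 and 0.01 on arrays 6 and 7. Medians of the erythrocyte list were -0.12 and -0.30 on arrays 1 and 2 and 0.66 and 0.42 on arrays 3 and 4. On arrays 5 and 8 they were -0.82 and -0.64, and on arrays 6 and 7 0.16 and 0.05. The neuron list was less alike, at -0.41 and -0.18 on arrays 6 and 7. Over the 24 pairings the correlation within pairs ran from -0.22 to 0.37, and the highest came with the fewest calls (1081 probes). Whether arrays alike in this way share RNA was not tested. Names came from RefSeq (GRCr8) accessions for 18006 probes. The test was checked on simulated data.

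The members and lists were chosen with earlier results of these data known. Named in the text are all 10 genes, up to 4 per related list (those called, else filled to 2 by the size of change), the 2 brightest of each marker list described with single genes, and the nearest genes of the pair with the largest change. *Keap1* and *Tmem119* were named after their values were seen. Alternatives were other background corrections and scalings, the scanner and deposited ratios, brightness and outlier filters, other pairings and blocks, each dye order or slide row alone, other probes and arrays left out. Leaving out dim spots was chosen after seeing the data.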

Additional observations from a re-analysis of the deposited data

Results flagged for a closer look

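Values in the 4 arrays of each dye order were screened, as log2 ratios and as levels, for single arrays standing apart from the rest of their group. Of 60 groups 7 held such an array, where chance gives about 1 in 20. The log2 ratio of *Srxn1* was -0.14 on array 6 against -0.02 to -0.01 on the other arrays with RA in Cy5. On array 5 the levels of *Srxn1* were 8.99 (RA) and 8.96 (vehicle) against 10.39 to 10.55 and 10.36 to 10.51 on the other arrays with RA in Cy3, and the vehicle level of *Txnrd1* was 7.51 against 8.39 to 8.55, where a spot of each gene lay in the dim patch. The vehicle level of *Sod2* was 11.28 on array 6 against 11.59 to 11.65. The RA level of *Mt3* was 15.06 on array 1 against 14.77 to 14.81. The RA level of *Gclm*, which was not above background, was 6.02 on array 2 against 6.13 to 6.14. The log2 ratio of *Sod1* was above 0 on every array with RA in Cy5 and below 0 on every array with RA in Cy3, with a difference of 0.18 between the means, which was not tested.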

How the results depend on the processing

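*Gpx1* was higher after RA under all 33 alternatives (log2 fold change 0.20 to 0.49) and passed an unadjusted p of 0.01 in limma under 30 of them, including all 16 in which 1 array of each dye order was left out (0.29 to 0.40). It missed that threshold with plain background subtraction (unadjusted p 0.0125), with the scanner's own log ratio (unadjusted p 0.0121) and in the first slide row alone (unadjusted p 0.0141, each by limma). *Nfe2l2* was also higher under all 33 (0.12 to 0.29) but passed under 14, and under 4 of the 16 with arrays left out. Adjusted p values under 0.05 in limma were found for *Gpx1* with slide row as a fixed block (0.0166) and with the pair as a random block (0.0341). The same held in slide row 2 alone (0.0426). Both *Gpx1* and *Nfe2l2* were under 0.05 with independent arrays, which ignore the repeated use of RNA. They were so too under the pairing that gave most calls, picked by its outcome (8.14e-04 for *Gpx1*).

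The count of called genes among the 10 was 0 with plain background subtraction and in slide row 1 alone. It was 1 with the scanner's log ratio (*Gclm*, lower, below background), with bright probes only, with RA in Cy5 only, with RA in Cy3 only and in slide row 2 alone (*Gpx1* each time), and 1 to 2 with arrays left out. The count over related lists, 8, became 2 with plain subtraction, 1 with the scanner's log ratio, 16 with independent arrays, 19 in the pairing with the most calls, 14 with RA in Cy3 only and 5 to 12 with arrays left out. Between slide rows none of the 10 was called (0 by limma, and 1, *Gpx1*, with p under 0.05 before adjustment), but with the deposited values 1 was. The causes were not tested.

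Signs turned only among genes that did not pass. With RA in Cy5 only, *Gclc* became -0.00235, *Sod1* 0.038 and *Mt3* 0.018, and with RA in Cy3 only *Gclm* became 0.036, *Srxn1* 0.018 and *Sod2* -0.069. In slide row 1 alone *Nqo1* was 0.028, *Txnrd1* -0.014 and *Srxn1* 0.037, and in row 2 alone *Gclc* was -0.018 and *Gclm* 0.079. With dim spots left out *Srxn1* was 0.012, and the row difference of *Gclm* was -0.45 with plain subtraction. With arrays left out, *Gclm* ran from -0.065 to 0.047, *Mt3* from -0.087 to 0.047, *Nqo1* from -0.10 to 0.019 and *Srxn1* from -0.038 to 0.026.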
